A study of Mus musculus with 7 samples.

Results

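The ATF4 stress target genes described here are 10 genes of the mouse: Atf4 itself and Chac1, Trib3, Gdf15, Ddit3, Sesn2, Ddit4, Nupr1, Cebpb and Atf3, out of 13699 Ensembl gene ids listed in the data. They were chosen by name, with earlier results from these libraries known, and each was found by its Ensembl id. The study sequenced RNA of neural cells derived from wild-type mouse embryonic stem cells of the B6G-2 line. Its 7 libraries are a control and single exposures to the organophosphate chlorpyrifos, the organochlorine DDT, the complex I inhibitor rotenone, the carbamate carbaryl, the pyrethroid deltamethrin and the neonicotinoid imidacloprid. All 7 cultures shared the same route: embryoid bodies for 6 days, growth as neural progenitors with bFGF and EGF up to day 14, then a differentiation medium, BrainPhys with B27, and 1 day with an insecticide or, for the control, without. Doses and the vehicle are not given in the sources used here, and the cells are of 1 stem cell line. Brain is the tissue on the labels, but the cells grew in a dish. The study asked how insecticides disturb the developing nervous system.

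ATF4 is a transcription factor at the centre of the integrated stress response. When any of a family of kinases phosphorylates the translation factor eIF2, bulk protein synthesis slows while the Atf4 message, held back by short upstream reading frames, is translated more. ATF4 then switches on genes for amino acid supply, redox balance, feedback on signalling and, under lasting stress, cell death, and it often binds as a pair with factors of the C/EBP family. In neurons and their progenitors this response is known to follow mitochondrial damage, misfolded protein in the endoplasmic reticulum and lack of amino acids. Since much of the control of ATF4 is in translation, the level of its message is an incomplete measure of its activity.

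The pair of ATF4 and a C/EBP factor is known to bind a composite element written TGATGNAA, where N is any base. It was looked for on both strands in the 250 bases before each start in the RefSeq promoters of GRCm38.p6, where all 10 genes matched, with 11 promoters because Gdf15 has more than 1 start. The promoters of Chac1, Atf3 and Nupr1 held a match, and the other 8 promoters held none in this window. Of all 32851 RefSeq promoters, 3.45% held one. The 3 promoters are shown because they hold the element. They are written 5′ to 3′ on the strand of the gene, with the match in capitals, where TTGCATCA is the element read on the opposite strand.
Chac1, chr2:119350992-119351241, plus strand: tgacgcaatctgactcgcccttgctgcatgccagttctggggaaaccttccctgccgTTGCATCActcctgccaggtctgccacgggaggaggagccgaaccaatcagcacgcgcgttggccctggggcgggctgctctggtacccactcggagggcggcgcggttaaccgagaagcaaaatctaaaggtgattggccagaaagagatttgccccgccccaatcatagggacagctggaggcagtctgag
Atf3, chr1:191183334-191183583, minus strand: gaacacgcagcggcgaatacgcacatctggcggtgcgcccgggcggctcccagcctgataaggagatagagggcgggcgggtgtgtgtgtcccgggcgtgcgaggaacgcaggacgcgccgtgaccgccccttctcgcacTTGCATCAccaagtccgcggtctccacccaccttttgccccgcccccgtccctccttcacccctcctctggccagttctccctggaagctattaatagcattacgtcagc
Nupr1, chr7:126625471-126625720, minus strand: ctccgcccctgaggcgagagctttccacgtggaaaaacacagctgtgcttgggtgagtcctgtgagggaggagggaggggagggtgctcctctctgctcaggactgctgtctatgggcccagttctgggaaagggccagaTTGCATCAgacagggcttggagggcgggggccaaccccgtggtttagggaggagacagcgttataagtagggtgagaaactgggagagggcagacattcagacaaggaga
The match ended 185 bases before the RefSeq start in Chac1 and 102 bases before it in Atf3 and in Nupr1. The start listed in the libraries lay 13 bases further upstream than the RefSeq start for Chac1 and 7 bases further upstream for Atf3. The 9-letter form TGATGCAAT was held by 0.167% of all promoters, and among the members by that of Nupr1. The cyclic AMP element TGACGTCA, found in 1.55% of promoters, had no match in the members' windows. A match describes letters in a window and is not evidence of binding in these cells.

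The deposited files list FPKM, a level scaled to transcript length and to library size, for each transcript start, transcript end and internal splicing event. A gene's level was taken as the mean of its summed starts and its summed ends. Of the 10 members, 8 could be used for folds, with agreeing ends and at least 1 FPKM on average across the libraries. Gdf15 and Atf3 reached that mean only through the DDT library, in which they were highest: without it their means over the other 6 libraries were 0.647 and 0.96 FPKM, with an unlisted library counted as 0. Nupr1 had end events only and is given as values. Cebpb, a C/EBP factor that pairs with ATF4, is a gene of a single exon (chromosome 2, 167688915 to 167690418), which has no start or end event of this kind, and it was not analysed here. Folds are differences of log2(FPKM + 1), exposed minus control, so changes of low genes are understated. A gene is called higher or lower at 1.5-fold or more on this scale. Each group is a single library, so differences could not be checked in replicates and carry no p-value. The depth behind each value is unknown.

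Between any pair of the 7 libraries the log2 ratios of the 6147 usable genes had an SD of 0.30 to 0.33. Progenitor markers were present in all libraries, with the intermediate filament genes Nes at 103 to 132 FPKM and Vim at 986 to 1221, and the neuronal marker Map2 was listed in each. None of the 4 microglial markers was found under its id, and of the pluripotency markers Pou5f1 was at most 0.64 and Nanog at most 0.15 FPKM. Of 5 oligodendrocyte lineage markers, 3 were found under their ids, and their sum was 83.7 FPKM with DDT against 158 to 172 in the other 6 libraries. This was the level of Olig2 (81.5 with DDT, 160.6 in control), while Mbp stood at 1.33 and 1.42. Sox10, at a low level, was also lower with DDT than in control (0.86 and 1.75). It stood at 0.96 with chlorpyrifos and at 1.19 to 2.11 with the other insecticides. The sum of the 6 astroglial markers was highest with DDT, at 147 against 109 to 130 elsewhere, through Slc1a3 at 107.6, while Slc1a2 was lowest with DDT (3.61) and Aldh1l1 highest with rotenone (43.6). The sum of 5 neuronal markers was 126 with DDT and 128 to 131 with carbaryl, deltamethrin and imidacloprid. It was 197.5 in control, 190.0 with chlorpyrifos and 185 with rotenone. The lower sum with DDT was the level of Map2 (72.5 with DDT, 149.5 in control). Stmn2 (18.1 and 11.4) and Rbfox3 (3.52 and 2.82) were higher with DDT than in control, and Dcx (24.9 and 26.4) and Snap25 (7.16 and 7.41) slightly lower. The 5 mesenchymal markers summed to 21.3 with rotenone and 13.3 to 16.1 elsewhere. Marker levels were taken without the checks on ends, mean level and gene id that a fold required. The marker shifts stand beside the DDT and rotenone values below, and their part in them was not tested. In RNA of whole cultures, a change in the share of a cell type and a change of RNA per cell cannot be told apart.

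The message of the regulator itself, Atf4 (chromosome 15, 80255184 to 80257541, plus strand), was abundant and varied little. It stood at 101.6 FPKM in control, 110.2 with chlorpyrifos, 134.2 with DDT, 117.6 with rotenone, 101.6 with carbaryl, 102.5 with deltamethrin and 100.97 with imidacloprid. DDT and rotenone were the highest libraries, and carbaryl, deltamethrin and imidacloprid lay within 1 FPKM of control. The log2 fold was 0.40 with DDT, 0.21 with rotenone and 0.12 with chlorpyrifos, all under the 1.5-fold threshold. With DDT, 12.9 FPKM of the start total, 9.62%, stood on a further first exon of 100 bases (80255185 to 80255284) that was listed in no other library. That exon belongs to an annotated Atf4 transcript with an extra exon at its 5′ end. The usual first exon (80255184 to 80255685) stood at 121.3 FPKM with DDT, still the highest of the 7.

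**Figure D1:**
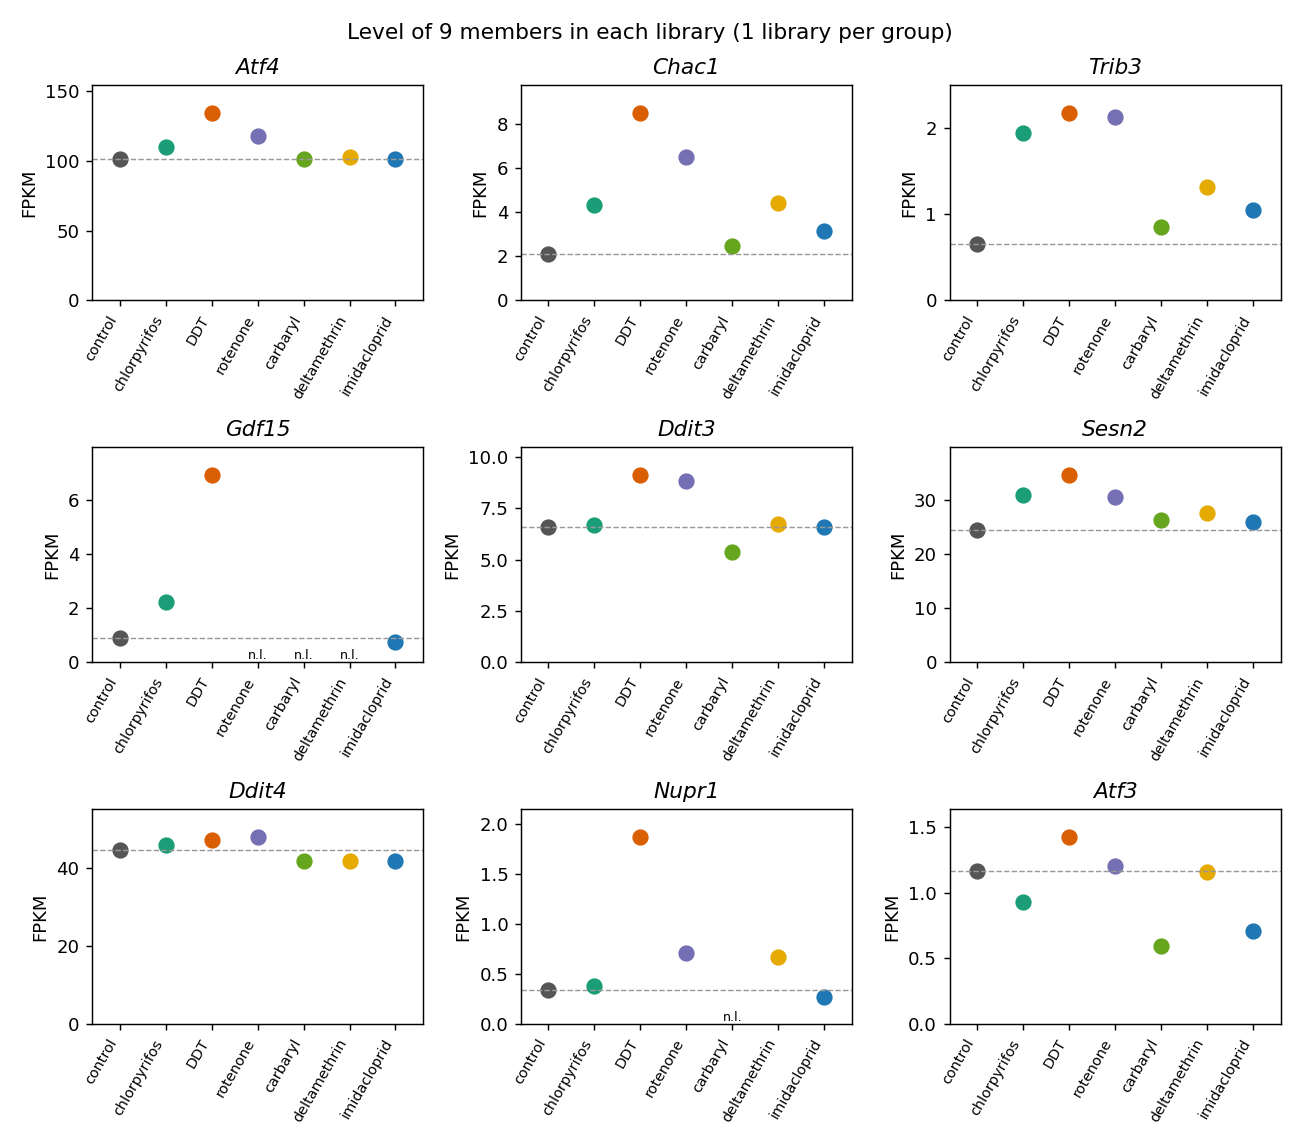
Each panel plots the level of a member in FPKM on an axis from 0 against the 7 libraries, with 1 point per library, the control level as a dashed line and n.l. where the gene was not listed. DDT is the highest point in 8 of the 9 panels and rotenone in the panel of Ddit4.

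Chac1 and Trib3 were lowest in control, then with carbaryl and then with imidacloprid, and highest with DDT and rotenone. Chac1 (chromosome 2, 119351229 to 119354381, plus strand) encodes an enzyme that breaks down glutathione and is among the most responsive ATF4 targets. It stood at 2.10 FPKM in control, 4.33 with chlorpyrifos, 8.49 with DDT, 6.52 with rotenone, 2.49 with carbaryl, 4.42 with deltamethrin and 3.13 with imidacloprid. Every exposed library was above control, and the level was 4.05 times that of control with DDT, 3.11 times with rotenone, 2.11 times with deltamethrin and 2.07 times with chlorpyrifos. On the log2(FPKM + 1) scale these were folds of 1.61, 1.28, 0.81 and 0.78, and the folds of 0.42 with imidacloprid and 0.17 with carbaryl were under the threshold. Its start and end totals were equal in all 7 libraries, and 1 start and 1 end were listed in each.

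Trib3 (chromosome 2, 152337422 to 152344032, minus strand) encodes a pseudokinase that binds ATF4 and restrains it as feedback. It stood at 0.656 FPKM in control, 1.95 with chlorpyrifos, 2.18 with DDT, 2.14 with rotenone, 0.854 with carbaryl, 1.32 with deltamethrin and 1.06 with imidacloprid. Chlorpyrifos, DDT and rotenone formed an upper group close to one another, at 2.97 to 3.32 times control. Their log2 folds were 0.83, 0.94 and 0.92, whereas the 0.48 of deltamethrin and the 0.31 of imidacloprid missed the threshold. With DDT, 0.622 of the 2.48 FPKM in the end total stood on an inner exon (152339748 to 152340007) that was listed as an end in no other library. By starts alone rotenone was highest at 2.14, followed by chlorpyrifos at 1.95 and DDT at 1.87, so that the top place of DDT rests on that end. With carbaryl no start was listed, and the value is the end total alone.

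Gdf15 (chromosome 8, 70629393 to 70632456, minus strand) encodes a secreted growth factor that signals to the hindbrain and is widely used as a blood marker of mitochondrial and cellular stress. It was listed at 0.895 FPKM in control, 2.24 with chlorpyrifos, 6.93 with DDT and 0.75 with imidacloprid, and was not listed with rotenone, carbaryl and deltamethrin. DDT was thus 7.75 times control and chlorpyrifos 2.5 times, with log2 folds of 2.07 and 0.77, while imidacloprid was below control at -0.11. The listed events belong to the 3-exon transcript that starts with the exon 70632150 to 70632456. Since the files hold only values above 0, an unlisted gene can be low or can be one whose estimate failed, and no fold is given for those 3 libraries. Rotenone thus had high Chac1 and Trib3 but no value for Gdf15.

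Among the partner factors, Ddit3 (chromosome 10, 127290774 to 127296288, plus strand) encodes CHOP, a C/EBP-related factor tied to death under lasting stress. It stood at 6.59 FPKM in control, 6.67 with chlorpyrifos, 9.13 with DDT, 8.81 with rotenone, 5.38 with carbaryl, 6.73 with deltamethrin and 6.60 with imidacloprid. DDT and rotenone stood above a cluster of 4 libraries between 6.59 and 6.73, and carbaryl below it. The folds of 0.42 with DDT, 0.37 with rotenone and -0.25 with carbaryl were all under the threshold. The second exon (127293712 to 127293759, 48 bases) was included in 99.99% of the FPKM of its event in every library. With carbaryl, 3.61 FPKM of the ends stood on an exon beyond the annotated gene (127297768 to 127298248) that no other library listed, and 1.70 on the usual last exon, which held at least 6.22 in the other 6 libraries.

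Atf3 (chromosome 1, 191170296 to 191218039, minus strand), an immediate response factor of the same bZIP class, was also highest with DDT and rotenone and lowest with carbaryl, but it was below control with chlorpyrifos and imidacloprid as well. It stood at 1.16 FPKM in control, 0.926 with chlorpyrifos, 1.43 with DDT, 1.20 with rotenone, 0.595 with carbaryl, 1.16 with deltamethrin and 0.711 with imidacloprid. Only DDT and rotenone exceeded control, and carbaryl was lowest with a fold of -0.44, which missed the threshold. In 5 libraries its whole listed level stood on transcripts that keep the stretch 191177340 to 191177447 in the exon 191177231 to 191177474, and with chlorpyrifos and imidacloprid only its end was listed. Nupr1 (chromosome 7, 126623249 to 126630861, minus strand), a small stress-induced chromatin protein, had end events only. These ends summed to 0.34 FPKM in control, 0.386 with chlorpyrifos, 1.88 with DDT, 0.717 with rotenone, 0.668 with deltamethrin and 0.275 with imidacloprid, and none was listed with carbaryl. DDT was again the highest library, at a level too low and too incomplete for a fold.

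Sesn2 and Ddit4 both restrain the growth kinase mTORC1, and they differed in how far they moved. Sesn2 (chromosome 4, 132492032 to 132510501, minus strand), which senses leucine and protects against oxidants, stood at 24.5 FPKM in control, 30.9 with chlorpyrifos, 34.7 with DDT, 30.6 with rotenone, 26.3 with carbaryl, 27.5 with deltamethrin and 25.9 with imidacloprid. All 6 exposed libraries were above control, with folds of 0.48 with DDT, 0.32 with chlorpyrifos and 0.31 with rotenone, none past the threshold. Ddit4 (chromosome 10, 59949669 to 59951834, minus strand), also known as REDD1 and induced by low oxygen and glucocorticoids as well, stood at 44.7 in control, 46.1 with chlorpyrifos, 47.2 with DDT, 48.1 with rotenone, 41.9 with carbaryl, 42.0 with deltamethrin and 41.7 with imidacloprid. Its range over the libraries was 0.20 on the log2 scale, the narrowest of the 8 usable members. Among the genes of the same pathway listed for comparison, 17 of 21 could be used. Their median fold lay between -0.002 and 0.05 in the 6 comparisons. The tumour suppressor kinase gene Stk11, which activates AMPK, was called lower with DDT, at 15.0 FPKM against 26.4 (-0.78). No other gene of this list was called in any comparison, beside 2.48% to 3.09% of all genes called higher and 2.74% to 3.31% lower.

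Counted together, the members were highest with DDT. Of the 7 members listed in all libraries, 6 had their highest level with DDT and 1, Ddit4, with rotenone (for Trib3 and Atf3 with the limits given above), while over 6121 usable genes listed in all libraries DDT was highest for 17.1% and rotenone for 16.5%. Control was lowest for 3 of the 7 members, carbaryl for 2 and imidacloprid for 2, against 13.9%, 14.1% and 11.9% of all genes. All 6 exposed libraries were above control for Chac1, Trib3 and Sesn2, which was so for 13.9% of all genes. Of the 7, 4 spanned 1.5-fold or more over the libraries, as did 26.5% of all genes. The members were chosen with these values known, so the counts describe them and support nothing further.

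With DDT, 3 of 8 usable members were called higher (Chac1, Trib3 and Gdf15) and none lower, beside 3.09% of all usable genes called higher and 3.31% lower. At 2-fold or more there were 2, Chac1 and Gdf15, beside 0.717% of all genes. Gdf15, in both counts, is usable only through its level with DDT. With the filter on the other 6 libraries, which leaves out Gdf15 and Atf3, 2 of 6 members were called higher with DDT, and 186 of 6128 genes. All 8 were above control by some amount, as were 52.1% of all genes. Their median fold was 0.45, where the median of all usable genes was 0.007.

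With rotenone, 2 of 7 usable members were called higher (Chac1 and Trib3) and none lower, beside 2.87% and 3.13% of all genes, and Chac1 alone passed 2-fold, beside 0.603%. The median was 0.31, and 7 of 7 were above control, as were 50.9% of all genes. With chlorpyrifos, 3 of 8 were called higher (Chac1, Trib3 and Gdf15) and none lower, beside 2.48% and 3.11% of all genes. The median was 0.22, and 7 of 8 were above control, as were 49.8% of all genes, with Atf3 the 1 below. Without Gdf15 and Atf3, 2 of 6 were called higher with chlorpyrifos. With deltamethrin, 1 of 7 was called higher (Chac1) and none lower, beside 2.72% and 3.19%, with a median of 0.03 and 5 of 7 above control, as were 50.6% of all genes.

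With carbaryl and imidacloprid no member was called. Beside this, 2.82% of genes were called higher and 3.16% lower with carbaryl, and 2.80% and 2.74% with imidacloprid. With imidacloprid the median was -0.003 and 4 of 8 members were above control, as were 53.5% of all genes. With carbaryl the median was -0.0005 and 3 of 7 were above, as were 49.9%. Carbaryl and chlorpyrifos both inhibit acetylcholinesterase, and with these Chac1 stood at 2.49 and 4.33 FPKM, Trib3 at 0.854 and 1.95 and Sesn2 at 26.3 and 30.9. DDT and deltamethrin both hold sodium channels open, and Chac1 stood at 8.49 and 4.42 FPKM and Trib3 at 2.18 and 1.32. Doses are not given, so these values are set side by side without a comparison of the compounds. All 6 comparisons share the control library, in which Chac1, Trib3 and Sesn2 had their lowest levels of the 7. Against the median of the other 6 libraries, Chac1 stayed past 1.5-fold with DDT (1.01) and rotenone (0.68) but not with deltamethrin (0.21) or chlorpyrifos (0.17), and Trib3 missed it with DDT (0.54), rotenone (0.52) and chlorpyrifos (0.44).

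**Figure D2:**
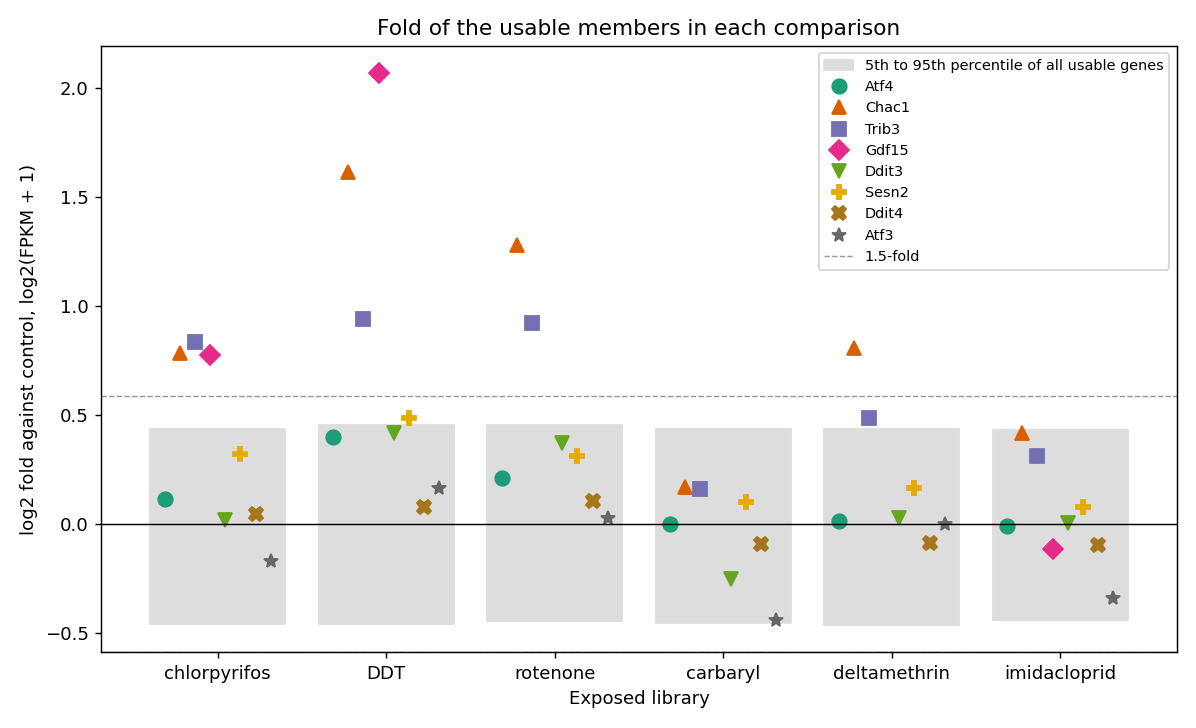
Symbols show the log2 fold of each usable member on the log2(FPKM + 1) scale in the 6 exposed libraries, over a grey band from the 5th to the 95th percentile of all usable genes and with 1.5-fold as a dashed line. Chac1 lies above the line with chlorpyrifos, DDT, rotenone and deltamethrin, Trib3 with the first 3 of these, and Gdf15 with chlorpyrifos and DDT, and no symbol lies above it with carbaryl or imidacloprid.

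Upstream of ATF4, the eIF2 kinases and the parts of eIF2 and its exchange factor showed no called gene in any comparison, with 12 of 19 usable. Of all usable genes, 2.48% to 3.09% were called higher and 2.74% to 3.31% lower in the 6 comparisons, so few calls would be looked for among 12 genes. Eif2ak1, the haem-regulated kinase that also relays mitochondrial stress, stood at 11.8 to 13.9 FPKM in the 7 libraries. Eif2ak4, the GCN2 kinase of amino acid lack, stood at 5.38 in control and was highest with rotenone at 7.22 (0.37). Eif2ak2, the kinase of double-stranded RNA, was 7.38 in control and lowest with carbaryl at 4.74 (-0.54). Eif2ak3, the PERK kinase of the endoplasmic reticulum, had ends that disagreed and gave values of 4.53 to 9.99. Of the phosphatase subunits that undo the response, the constitutive Ppp1r15b stood at 19.3 to 21.9. The inducible Ppp1r15a, itself an ATF4 and CHOP target, was given as values only, at 4.79 in control and 5.75 to 6.78 in the exposed libraries. The list's median lay between -0.07 and 0.04.

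Of the related bZIP factors, 6 of 18 could be used. Jdp2, a repressor of the same class, was highest with DDT at 9.44 FPKM against 5.97 (0.58), just under the threshold. The immediate early gene Fos was called higher with rotenone, at 4.74 against 2.66 (0.65), and with imidacloprid, at 4.69 (0.64), and stood at 2.53 with DDT. Atf6, an endoplasmic reticulum sensor, was highest with deltamethrin at 4.28 against 2.86 (0.45). The list's median was 0.14 to 0.27 in the 6 comparisons, with the lowest median with DDT and the highest with rotenone.

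The ATF4 targets of amino acid supply, another branch of the program, also had their highest median with DDT. With DDT 14 of 14 usable genes of the 25 listed were above control with a median of 0.28, and 2 were called higher, beside 52.1% and 3.09% of all usable genes. With rotenone 11 of 14 were above control with a median of 0.13 and 2 called higher, beside 50.9% and 2.87%. With chlorpyrifos 11 of 14 were above control with a median of 0.11 and 1 was called lower, beside 49.8% and 3.11%. Asns, the asparagine synthetase, stood at 52.8 FPKM with DDT and 53.6 with rotenone against 32.8 in control (0.67 and 0.69), with 32.8 to 39.5 in the other 4. Slc7a11, the cystine transporter, stood at 4.56 and 3.39 against 1.76 (1.01 and 0.67). Slc7a1, a carrier of arginine and lysine, was called lower with chlorpyrifos at 7.85 against 13.5 (-0.71) and with deltamethrin at 8.20 (-0.65). Aldh18a1, of proline synthesis, was called lower with deltamethrin at 19.1 against 29.5 (-0.60). With carbaryl, deltamethrin and imidacloprid the list's median was within 0.03 of 0.

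The synthetases that charge tRNA had 9 of 13 genes usable, with medians of 0.19 with DDT and 0.17 with rotenone and 0.02 to 0.09 in the other 4 comparisons. Cars, for cysteine, was highest with DDT at 23.3 FPKM against 15.9 (0.52). Nars, for asparagine, was called higher with every insecticide but deltamethrin, at 52.1 to 68.2 against 21.2 in control (1.25 to 1.64). With deltamethrin it was called lower, at 12.7 (-0.70). Nars is also on the list of other stress effectors. Iars, for isoleucine, was called lower with imidacloprid at 19.96 against 35.4 (-0.80). Among other stress effectors, 13 of 28 could be used, with medians of -0.07 to 0.09. The lipoprotein receptor gene Vldlr was above control with all 6 insecticides, at 6.64 to 9.12 against 4.28, and was highest with chlorpyrifos (0.94). The autophagy receptor gene Sqstm1 was called lower with rotenone, at 31.2 against 54.4 (-0.78).

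The folding program that ATF6 and XBP1 drive, a separate arm of the endoplasmic reticulum response, had 17 of 22 genes usable. With DDT 15 of 17 were above control (52.1% of all genes) with a median of 0.12. None was called higher and 1 was called lower, beside 3.09% and 3.31% of all genes. The gene called lower was the isomerase Pdia6 at 42.8 FPKM against 72.6 (-0.75), and it was also called lower with chlorpyrifos at 43.0 (-0.74). Sec61b, of the translocation channel, was called lower with rotenone at 62.3 against 110.3 (-0.81) and with carbaryl at 65.6 (-0.74). Mitochondrial chaperones and proteases had 8 of 12 usable and a median of -0.11 with rotenone, the lowest of the 6, with the protease Htra2 called lower at 13.2 against 23.2 (-0.77). The p53 targets (9 of 16 usable) had medians of 0.01 to 0.16. Their receptor gene Eda2r was called lower with chlorpyrifos at 2.01 against 5.32 (-1.07), with rotenone at 2.79 (-0.74) and with imidacloprid at 1.47 (-1.35). NRF2 targets (11 of 14 usable) had medians of -0.04 to 0.24. With DDT 3 of 11 NRF2 targets were called higher, beside 3.09% of all genes, the haem oxygenase Hmox1 at 31.0 against 19.8 (0.62), the pentose pathway enzyme G6pdx at 19.0 against 8.94 (1.01) and Slc7a11, which is also an ATF4 target. G6pdx was called higher with deltamethrin (15.1, 0.70) and imidacloprid (15.4, 0.72) too, and Slc7a11 with rotenone.

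**Figure D3:**
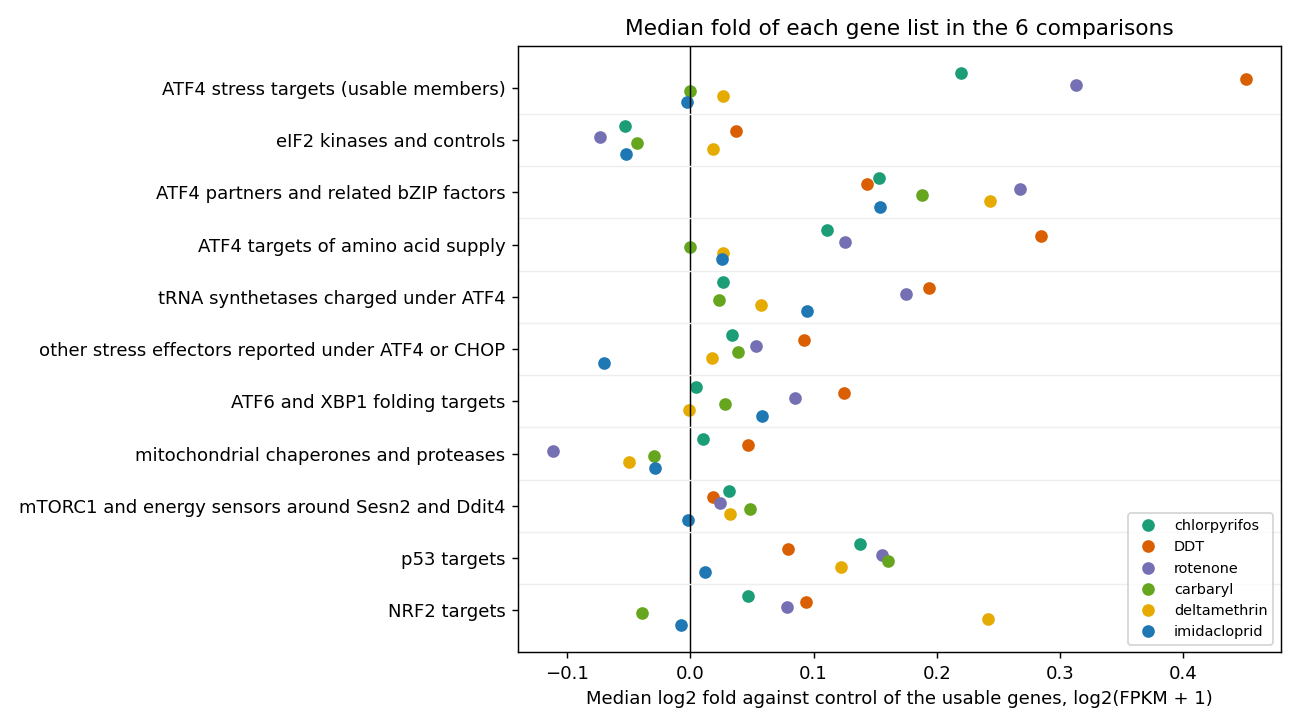
Each point is the median log2 fold of the usable genes of a list in 1 comparison with control, on the log2(FPKM + 1) scale, coloured by insecticide. The members have their highest medians with DDT (0.45), rotenone (0.31) and chlorpyrifos (0.22), while the medians of the other 10 lists lie between -0.11 and 0.28.

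The genes whose pattern over the 7 libraries was most like that of a member were sought among 1247 usable genes of at least 5 FPKM that spanned at least 0.5 on the log2 scale. Likeness was the mean absolute difference of the centred log2(FPKM + 1) values, so a small value means a similar pattern and size. For Trib3 the nearest gene was Asns with 0.10, followed by Dynlt1c with 0.12, Srsf6 with 0.14, Moxd1 with 0.15 and Tspoap1 with 0.15. Asns was also nearest to Chac1, with 0.24, followed by Swi5, Cox19, Ola1 and Dynlt1c with 0.28 to 0.30. For Atf4 the nearest were Zfp317, Nubp1, Vegfa, Mthfd2 and Cars with 0.06 to 0.08. Of these, Vegfa stood at 13.7 FPKM with DDT and 12.1 with rotenone against 9.51 in control, and the mitochondrial folate enzyme Mthfd2 at 47.8 and 41.5 against 34.5. Vegfa, Mthfd2, Cars and Asns are on the lists described above. With 7 libraries many genes can share an order, and likeness is a description.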

How the data were processed

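RNA of 7 cultures was sequenced, with 1 library per group, grouped by the sample titles. The submitters' processing notes name the build GRCm38 and the tools HISAT2 2.0.1, cutadapt 1.9.1 and bcl2fastq 2.17.1.14. Per the file headers, the authors deposited 1 FPKM value for each event of transcript structure. The program behind them was not given in the sources used here. Files list 93977 to 95776 distinct events per library after 1973 to 2078 repeated lines were dropped. FPKM was used with no further scaling, with python 3.11.15 and pandas 2.3.3.

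Genes were taken from the Ensembl id on each line, which for some loci names a neighbour. Events on the other strand were left out. A gene was usable where its mean was at least 1 FPKM, where starts and ends agreed within 0.3 on the log2 scale over at least 4 libraries listing both, and where its level agreed within 0.3 with that from matching exon boundaries to GENCODE M21, also GRCm38. Of 10570 genes at 1 FPKM, 6363 had agreeing ends and 6147 passed all of these. In a library with 1 end listed, that end was the value. A symbol with more than 1 id took the id that carries events, and 13686 of 13699 ids had a symbol. Folds need a listed value in both libraries, and the pseudocount was 1 FPKM. With 1 library per group no test was run. The arithmetic of the steps was checked on copies of the control library in which chosen genes were changed 2-fold. No noise was added and the pseudocount was close to none, so that check does not cover the limits of these data.

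The members and lists were chosen with earlier results of these data known. Named genes are the members, up to 4 genes of each of 10 lists with the largest absolute fold, the eIF2 kinases and phosphatase subunits, and the 5 genes most like Chac1, Trib3 and Atf4, without pseudogenes, clone names or predicted models. Mthfd2 and Vegfa come from the last rule. The genes of the closing section fall outside these rules and are all members of their list without a fold, chosen after values were seen. Alternatives are given in the closing section.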

Additional observations from a re-analysis of the deposited data

How the results depend on the processing

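Of 168 counts and medians over the members recomputed under 14 alternatives, 156 stayed close to the value given, and of 581 folds of single members 559 did, where close means within 1.5 times for a count, 0.12 for a median and 0.32 for a single gene on the log2 scale. No called fold changed sign. The tallies include agreement that was fixed in advance. Start and end totals were equal for Atf4, Chac1, Gdf15, Ddit3, Sesn2 and Ddit4, so either total alone returned their folds unchanged. Removing the filter on low values or loosening the agreement of ends cannot alter a member's fold, and keeping repeated lines altered none. With a pseudocount of 0.1 FPKM, 2 of 7 members were called higher with deltamethrin and 1 of 8 with imidacloprid. Of all genes, 265 of 6139 were then called higher with deltamethrin in place of 167, and 260 of 6137 with imidacloprid in place of 172. The number of all genes called higher with chlorpyrifos was 253 in place of 152. Among genes of at least 5 FPKM, where only 4 members remain (Atf4, Ddit3, Sesn2 and Ddit4), the count called higher was 0 with chlorpyrifos, DDT, rotenone and deltamethrin, and the median with chlorpyrifos was 0.080. Of all genes at that level, 96 of 4575 were called higher with chlorpyrifos and 114 of 4574 with DDT. With rotenone these were 108 of 4575 and with deltamethrin 101 of 4575. The called members are thus those of low level, Chac1, Trib3 and Gdf15. Against the median of the other 6 libraries in place of control, 1 member was called higher with chlorpyrifos, 1 with rotenone and 0 with deltamethrin, and the median was -0.27 with carbaryl and -0.25 with imidacloprid. On that reference 2 of 8 members were called higher with DDT. The member called with chlorpyrifos was Gdf15, and those with DDT were Chac1 and Gdf15. Gdf15 was listed in only 4 libraries, and the median of the others listing it was its control value. Its folds of 0.77 with chlorpyrifos and 2.07 with DDT were therefore the same as against control, and the changed reference did not test them. DDT had 73 of all genes called higher in place of 190, and chlorpyrifos 49 in place of 152. Rotenone had 53 of all genes called higher in place of 176, and deltamethrin 51 in place of 167. Matching by exon boundary, start or end totals alone, scaling to the median ratio, keeping repeats, a looser agreement of ends, and 4 alternatives chosen after seeing the data (no check of the gene id, both strands summed, a missing end counted as 0, the filter on low values without the DDT library) moved no count or median of the members beyond these limits. With a missing end counted as 0, the fold of Trib3 with carbaryl was -0.21 in place of 0.16. No library could be left out, since each group has 1. No paired analysis was possible because each group has a single library. The depth per library is unknown, and Trib3, Gdf15, Atf3 and Nupr1 were near or under 1 FPKM in control.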

Other observations

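Of the genes of amino acid supply, 10 were listed but could not be used for folds, and their values are given here alone. Of these 10, 5 were highest with DDT, 3 with rotenone, 1 with carbaryl and 1 with deltamethrin. Over 6121 usable genes listed in all libraries the shares were 17.1%, 16.5%, 12.5% and 12.9%. These 10 genes did not pass the filters and were chosen after values were seen, so the count is a description. The proline enzyme Pycr1 stood at 4.77 FPKM with DDT, 4.27 with rotenone, 4.40 with imidacloprid and 3.23 with carbaryl against 1.06 in control. The mitochondrial PEP carboxykinase Pck2 stood at 9.28 with DDT and 9.13 with rotenone against 6.71, and at 4.30 to 6.33 with the other 4. The carriers Slc7a3 (5.35 against 2.60), Slc1a5 (7.80 against 6.36) and Slc6a9 (9.62 against 6.51) were also highest with DDT, and Slc6a9 was at 9.33 with deltamethrin and 9.19 with imidacloprid. The folate enzyme Aldh1l2 was highest with rotenone at 6.78 against 1.73, with 3.53 to 4.20 with chlorpyrifos, DDT and deltamethrin. The cystathionine lyase Cth, which makes cysteine, stood at 3.59 with rotenone and 3.40 with DDT against 1.24. The serine enzymes had different highest libraries. Psat1 was at 27.4 with carbaryl and at 106.7 to 123 in the other 6 libraries, highest with rotenone. Psph was highest with deltamethrin at 28.4 against 16.6, and Shmt2, which turns serine into glycine, was highest with carbaryl at 53.2 against 29.1.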
